A study of Drosophila melanogaster with 9 samples.

Results

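Midguts of transformer (tra) mutant females in which a female-form tra transgene (traF) was switched on in the adult progenitor cells were compared with midguts of control females. The comparison took the 3 libraries whose titles name the mutant with esg>traF and the 3 libraries whose titles name the female control, 6 of the 9 libraries of the series. The other 3 libraries, from tra mutant females without the transgene, shared the estimate of the spread. Their levels are given for only some of the genes named. Where they are not given, a difference from control may be present in the mutant too. Several genes whose mutant levels are given also differed from control in the mutant. All flies were virgin Drosophila melanogaster females in a w1118 background with a stated age of 15 days. In all 3 groups 3 days at 18 °C were followed by 10 days at 29 °C, a shift of the kind used to switch on such transgenes in adults. Each library came from a pool of 30 dissected midguts. The esg driver is used to direct transgenes to the progenitors of the gut, so by design the rest of the midgut in the rescue lacks tra. Where tra was expressed was not measured, and esg is also active in some cells outside the midgut. The sources used here give neither the tra alleles, nor whether the controls carried the driver, nor the chromosomes of the driver and of traF. Nothing in the labels ties a replicate to its own culture, so a p-value reflects the spread among these libraries only, and that spread may be technical.

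Transformer is a splicing factor made only in females, where it directs the female splicing of doublesex (dsx), whose male and female proteins control most sexual differences of the body. The adult midgut is renewed by stem cells, which with their enteroblast daughters are marked by escargot (esg), and which give rise to absorptive, enzyme-secreting enterocytes and to hormone-secreting enteroendocrine cells. In this tissue, tra is known to act in the progenitors of females on their growth and division, and sex also sets part of the digestive programme of the gut. A pool of whole midguts mixes all these cells, so fewer cells of a type and less RNA per cell cannot be told apart.

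tra itself stood at 8.55, 6.91 and 6.62 CPM (gene counts scaled to library size with TMM factors) in the control libraries. In the rescue libraries it stood at 6.49, 5.66 and 3.41 CPM, and in the mutant at 0.0102, 0.021 and 0.00956 CPM. Every rescue library lay above every mutant library and below every control library. Against the mutant, the log2 difference of the rescue was 8.46 ± 0.41 (SE, n = 3 libraries per group, adjusted p = 2.34e-05 by edgeR's quasi-likelihood test). Against the control it was -0.50 ± 0.24, which did not pass the threshold (adjusted p = 0.215). These counts do not separate the native gene from the transgene, and exons of tra overlap l(3)73Ah on the other strand. Adjusted p throughout is the Benjamini-Hochberg value of this test over 10088 genes, with a threshold of 0.05, and a gene past it is said to have been called.

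The 6 libraries held 84839470 to 108455374 gene counts each. The midgut markers mex1 (255, 297 and 377 CPM in control, 258, 305 and 326 in rescue), an enterocyte gene, and Myo31DF (602, 712 and 706 in control, 670, 687 and 719 in rescue), a myosin of the enterocyte brush border, were abundant in every library and were not called. esg itself and Delta, the markers that define the progenitors, were not analysed here. Control replicate 3 stood apart from the other controls: on the first principal component of the 6 libraries, which held 48% of the variance, it lay at -56.8, against -23.2 and -24.8 for the other controls and 33.1 to 36.2 for the rescue. Correlations of log CPM were 0.983 to 0.985 within the rescue and 0.973 to 0.983 within the control. Of 45 cell cycle genes tested, 32 had their highest level of the 6 libraries in control replicate 3, so results on dividing cells are given with and without it. The share of all genes tested that peaked in that library is not given here.

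Between rescue and control, 952 of the 10088 genes tested were called (9.44%). Of these, 483 were higher in the rescue (4.79%) and 469 lower (4.65%). Every count of called list members below is to be read beside these shares. The median log2 fold change was 1.14 over the genes called higher and -0.99 over those called lower, beside -0.03 over all genes tested. At least 2-fold differences were reached by 291 called genes in the higher direction (2.88%) and 233 in the lower (2.31%). All 483 higher genes and 468 of the 469 lower ones had groups that did not overlap, beside 15.6% and 15.8% of all genes tested, called or not, that were separated in the higher and the lower direction. These counts moved with the libraries and the tool used: fitted on the 6 libraries alone, 294 genes were higher and 200 lower. Leaving out rescue replicate 1, 2 or 3 gave 309, 277 or 221 higher and 151, 151 or 139 lower, leaving out mutant replicate 3 gave 389 and 273, and DESeq2 gave 836 and 906.

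**Figure D1:**
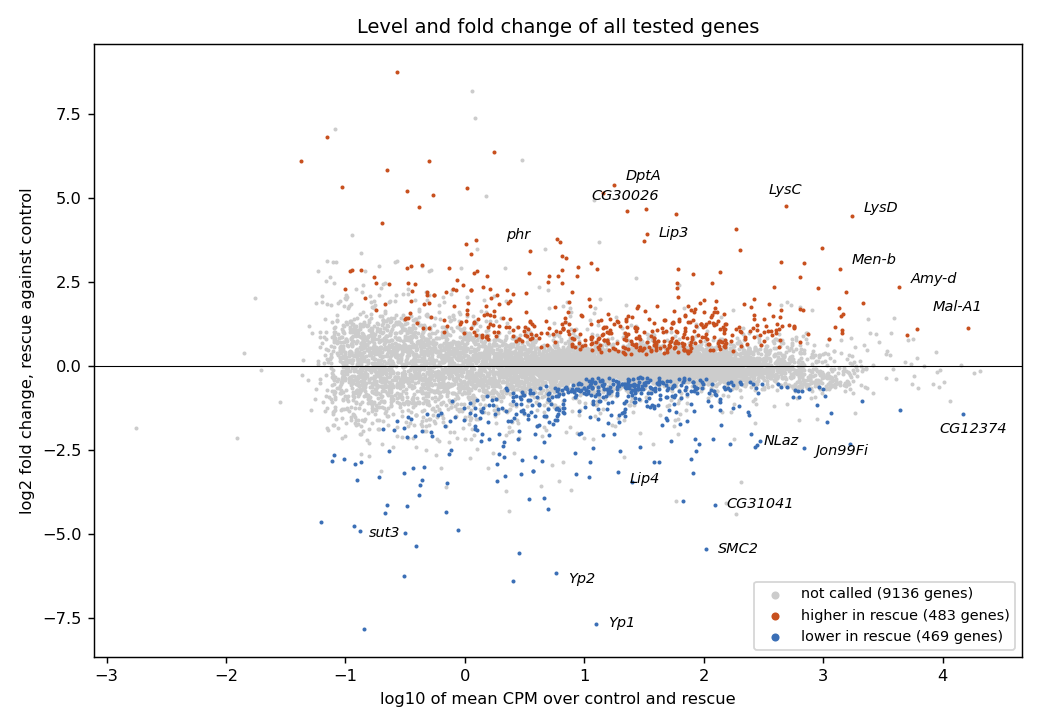
Log2 fold change of rescue against control (vertical axis) against the log10 of the mean CPM over both groups (horizontal axis) for each gene tested. Orange points are the 483 genes called higher in the rescue, blue points the 469 called lower and grey points those not called. LysD and Amy-d stand out among abundant genes on the higher side, and SMC2, Yp1 and Yp2 on the lower.

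Among the sex determination genes, 1 of 12 tested was called and none was lower, with a median log2 fold change of 0.08, and 2 were higher without mutant replicate 2. The called gene was dsx, the switch gene itself, with 30.5, 23.5 and 22.2 CPM in control and 51.1, 48.1 and 40.2 CPM in rescue. All rescue libraries lay above all controls, by a log2 fold change of 0.87 ± 0.17 (adjusted p = 0.0142). In the mutant, dsx had a mean of 35.5 CPM, between the groups. The counts cover dsx as a whole and do not tell its male from its female splice forms, and its exons overlap lds on the other strand. The 7 dosage compensation genes tested held no call in either direction, with a median of 0.04, 1 of them at an unadjusted p under 0.05 and 0 called by DESeq2. That gene, roX1, a male-specific noncoding RNA of dosage compensation, read 0.773, 10.2 and 0.51 CPM in rescue and 0.448, 0.595 and 0.509 in control, a difference of 1 library (adjusted p = 0.0907).

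Of the yolk protein genes, which are active in females, Yp1 and Yp2 were lower in the rescue and Yp3 was not called. Yp1, a yolk protein of fat body and ovary, read 44.9, 25.2 and 5.23 CPM in control but 0.0172, 0.348 and 0.0232 CPM in rescue. The lowest control lay well above the highest rescue library, and the log2 fold change was -7.69 ± 1.14 (adjusted p = 0.00401). Yp2 fell in the same way, from 16.0, 15.9 and 2.25 CPM to 0.112, 0.252 and 0.116 CPM (-6.17 ± 0.80, adjusted p = 0.00213). Their means in the mutant were 0.179 and 0.17 CPM. Yp3 overlapped between groups, with 20.2, 12.7 and 2.07 CPM in control and 0.438, 0.204 and 4.17 CPM in rescue (adjusted p = 0.121). Obp99b, an odorant-binding protein known as male-biased in the head fat body, was higher in the rescue, with 45, 96 and 33 counts against 2, 0 and 3 in the controls. The ratio of its summed counts was 37.5 (95% counting interval 15.8 to 117), and the test across genes gave an adjusted p of 0.00423. Of 6 such sex-biased transcripts tested, 1 was called higher and 2 lower, with a median log2 fold change of -1.60. Without mutant replicate 2 or rescue replicate 1, 2 were higher.

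Part of the fat body genes were lower. Of 11 tested, 4 were lower and none higher, with a median of -0.68, and the summed level of the list was 280 to 560 CPM in control and 94.6 to 128 CPM in rescue. Yp1 and Yp2 are among the 4. NLaz, a lipid-binding lipocalin, made up most of the sum. It read 446, 494 and 264 CPM in control and 87.0, 92.8 and 114 CPM in rescue, which did not overlap (-2.03 ± 0.28, adjusted p = 0.00273). Lsp1gamma, a larval storage protein, fell from 0.417, 1.64 and 1.81 CPM to 0.266, 0.204 and 0.208 CPM (-2.50 ± 0.53, adjusted p = 0.0202), a call that was lost when any rescue library was left out. Of the 11 genes, 8 had a log2 fold change below 0. Lsp2 (2.82 ± 0.90), Lsp1beta (1.96 ± 1.06) and Fbp2 (1.51 ± 0.49) went the other way and were not called (adjusted p = 0.0782, 0.267 and 0.0805). These 3 stood at 1.98 CPM or less in the 6 libraries. Rescue replicate 2 held most of the rise of Lsp2 (0.24, 1.98 and 0.417 CPM in rescue) and of Lsp1beta (0.369, 1.71 and 0.208 CPM). apolpp, the lipophorin precursor and a defining fat body product, read 2.91 to 14.5 CPM in control and 4.88 to 6.29 CPM in rescue and was not called. The part of attached fat body in the lower yolk protein counts was not tested.

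Enzymes of starch and sugar digestion were the most abundant genes to be higher in the rescue. Of 21 carbohydrate genes tested, 8 were higher (38.1%) and 1 lower (4.76%), beside 4.79% and 4.65% of all genes. The median log2 fold change was 0.93. Mal-A1, a maltase and among the most abundant transcripts of the gut, read 13159, 9678 and 7863 CPM in control and 21367, 23880 and 21901 CPM in rescue. No control reached the rescue range, and the log2 fold change was 1.13 ± 0.25 (adjusted p = 0.0247). Amy-d, an alpha-amylase, rose from 1341, 1803 and 1128 CPM to 6686, 8342 and 6689 CPM (2.35 ± 0.23, adjusted p = 0.000573). In the mutant, Amy-d averaged 7412 CPM, and the rescue differed from it by -0.03 ± 0.22 on the log2 scale. Amy-d and its neighbour Amy-p are nearly identical copies, so reads that fit both may be missing from the counts of each. Amy-p was not called, with 6504, 9963 and 5963 CPM in control and 8840, 11840 and 9196 CPM in rescue.

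Further maltases moved with them. Mal-A4 rose from 585, 904 and 403 CPM to 1414, 2842 and 1927 CPM (1.71 ± 0.34), Mal-A3 from 814, 989 and 427 to 1683, 2497 and 2036 (1.48 ± 0.29), and Mal-B2 from 6.25, 6.50 and 2.39 to 19.4, 15.7 and 16.8 (1.78 ± 0.33). In each of these maltases the rescue libraries lay above all controls. Mal-A6 rose from 5480, 3786 and 2351 CPM to 8354, 8707 and 7726 CPM (1.09 ± 0.29, adjusted p = 0.0433), and Mal-A2 (0.97 ± 0.16) and the putative sugar transporter sut2 (0.93 ± 0.19) were the other members called higher. sut3, a relative of sut2, went the other way, with 63, 79 and 91 counts in the controls and 2, 0 and 3 in the rescue. Its summed counts were 43.3 times higher in control (95% counting interval 18.3 to 135, adjusted p = 0.0011), and none of the 9 libraries exceeded 1.05 CPM. Mal-A7, Mal-A8 and tobi, an alpha-glucosidase, spread widely among the controls, tobi from 1000 to 8125 CPM, and were not called. Without rescue replicate 2 or 3, 4 carbohydrate genes were higher in place of 8, and 5 with the 6 libraries alone. Left out singly, rescue replicate 2 ended the calls of Mal-A1, Mal-A3, Mal-A4 and Mal-A6, rescue replicate 3 those of Mal-A1, Mal-A3, Mal-A6 and sut2, and rescue replicate 1 those of Mal-A1 and Mal-A6. The call of Mal-A6 was also lost without control replicate 2 or any 1 mutant library.

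Some of the largest increases among the named abundant genes were in lysozymes. Of 7 tested, 4 were higher in the rescue and none lower, with a median log2 fold change of 1.96. LysD, a lysozyme of the digestive tract, read 128, 215 and 108 CPM in control and 2678, 4163 and 3102 CPM in rescue. The gap between the groups was far wider than the spread within them, and the fold was 22.0 (log2 4.46 ± 0.32, adjusted p = 8.66e-05). LysC rose from 21.8, 48.1 and 35.4 CPM to 574, 1321 and 944 CPM (4.75 ± 0.39), and LysB from 13.5, 54.0 and 34.2 CPM to 242, 528 and 341 CPM (3.45 ± 0.51). LysE rose from 38.0, 60.5 and 24.0 CPM to 112, 206 and 157 CPM (1.96 ± 0.39, adjusted p = 0.016), a call lost without rescue replicate 2. The mutant means of these genes were 3406, 935, 359 and 184 CPM. They are close copies in a cluster, and exons of LysC and LysD overlap on opposite strands. Reads that fit more than 1 of them may be missing from the counts. LysX read 38.6, 35.6 and 229 CPM in control and 36.7, 49.0 and 36.1 CPM in rescue and was not called. Without rescue replicate 3, 1 lysozyme was lower.

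Calls among the proteases of the gut lumen were all lower. Of 29 trypsins and Jonah proteases tested, 3 were lower (10.3%, beside 4.65% of all genes) and none higher. The median was -0.23, or -0.01 without control replicate 2 and -0.09 without rescue replicate 1. Jon99Fi, a chymotrypsin-like enzyme, read 758, 1436 and 1301 CPM in control and 155, 250 and 235 CPM in rescue, with no overlap (-2.45 ± 0.29, adjusted p = 0.00128). Its mutant mean was 173 CPM. Its near copy Jon99Fii read 2099, 4509 and 3426 CPM in control and 1564, 2215 and 1921 CPM in rescue (adjusted p = 0.0874). Reads that fit both copies may be missing from the counts of each. epsilonTry fell from 3197, 3563 and 1806 CPM to 1188, 1471 and 1457 CPM (-1.06 ± 0.26, adjusted p = 0.0351) and deltaTry from 7.57, 7.90 and 11.3 to 1.71, 3.62 and 3.37 (-1.62 ± 0.37, adjusted p = 0.0262), trypsins of a cluster of close copies. Without any 1 rescue library 1 gene was lower in place of 3, without control replicate 1 6 were, and without control replicate 2 or 3 1 was higher. Both trypsin calls were lost without any 1 rescue library, that of deltaTry also without control replicate 3 and that of epsilonTry without control replicate 1 or 2 or mutant replicate 2 or 3. The most abundant trypsin, alphaTry, read 23674, 26827 and 14671 CPM in control and 17209, 19708 and 21779 CPM in rescue.

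By absolute difference, the genes lower in the rescue were led by other peptidases. CG12374, a metallocarboxypeptidase, read 24069, 28221 and 12632 CPM in control and 6807, 6533 and 10414 CPM in rescue. The groups stood apart by little at their nearest libraries (-1.45 ± 0.33, adjusted p = 0.0273), and the call was lost without control replicate 1 or 2, without mutant replicate 3 and without rescue replicate 1 or 2. CG17633, of the same enzyme class, fell from 6558, 8372 and 3988 CPM to 2222, 2602 and 2736 CPM (-1.32 ± 0.27, adjusted p = 0.0172), a call lost without any 1 rescue library. CG11911, a serine protease, fell from 2463, 3898 and 2030 CPM to 414, 456 and 781 CPM (-2.35 ± 0.31, adjusted p = 0.00242), and CG17571, another, from 1512, 2082 and 1352 to 470, 523 and 549 (-1.68 ± 0.19, adjusted p = 0.00101). CG5506 fell from 1399, 1814 and 1863 CPM to 572, 682 and 670 CPM (-1.40 ± 0.20).

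**Figure D2:**
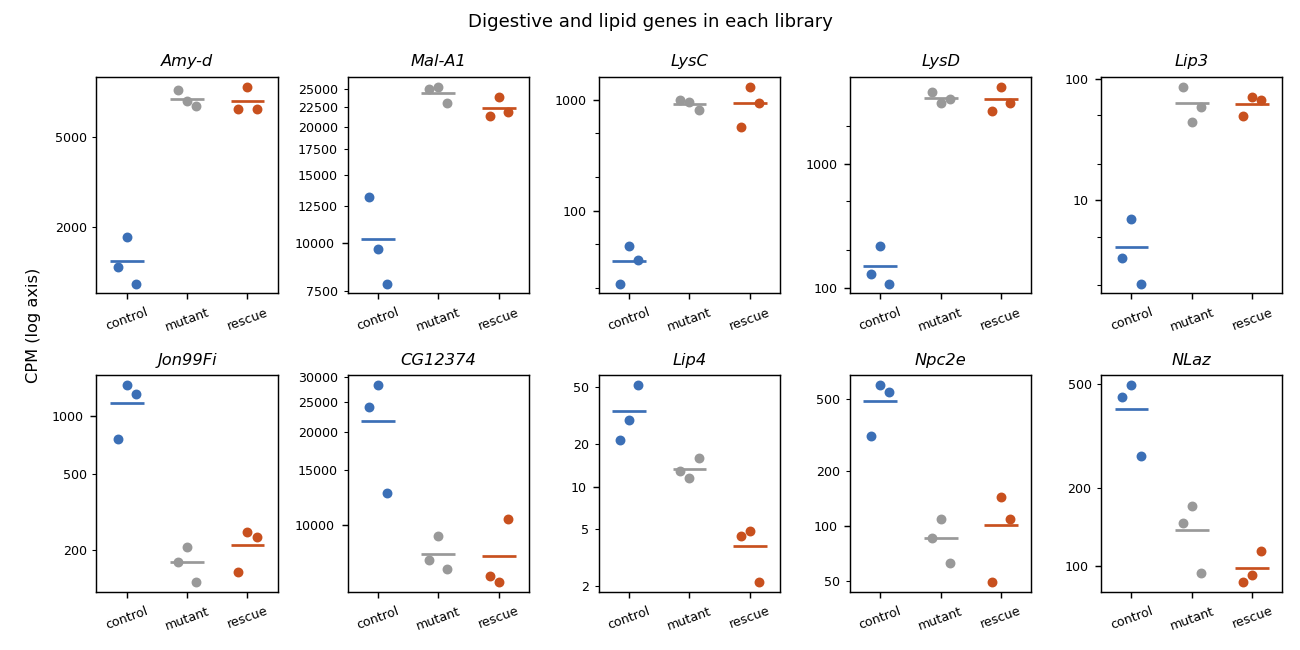
CPM in each of the 9 libraries (log axis, scale differing by panel) for 10 digestive and lipid genes, with points for libraries and bars for group means. In the top row every rescue library lies above every control, as LysD at 2678 CPM or more against 215 or less, and in the bottom row below. Mutant libraries are drawn in grey.

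Calls among lipid genes went in both directions. Of 28 tested, 2 were higher (7.14%) and 5 lower (17.9%), beside 4.79% and 4.65% of all genes. The median was -0.20, or 0.02 without control replicate 2 and -0.02 without control replicate 3. Lip3, a lipase of the acid lipase family, read 3.36, 6.98 and 2.07 CPM in control and 49.3, 70.9 and 66.8 CPM in rescue, 15.1-fold higher with no overlap (adjusted p = 0.000973). Its mutant mean was 62.7 CPM. Lip4, of the same family, fell from 21.3, 29.3 and 51.8 CPM to 4.51, 4.83 and 2.13 CPM (-3.16 ± 0.38, adjusted p = 0.00143). Its mutant libraries, at 12.8, 11.5 and 15.8 CPM, lay between the groups, and the rescue differed from them by -1.80 ± 0.37 (adjusted p = 0.0995). SCAP, the escort of the lipid sensor SREBP, was modestly higher, with 30.4, 35 and 31.5 CPM in control and 46.4, 47.9 and 49.1 CPM in rescue (0.56 ± 0.10, adjusted p = 0.00953).

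Sterol-binding proteins were among the lower lipid genes. Npc2e fell from 312, 596 and 549 CPM to 49.4, 145 and 110 CPM (-2.26 ± 0.40, adjusted p = 0.00925), and Npc2a, its relative, from 36.2, 49.4 and 85.3 to 25.9, 28.6 and 21.0 (-1.18 ± 0.27, adjusted p = 0.0255). Neither gene overlapped between control and rescue. Their mutant means were 86.1 and 36.2 CPM. Desat1, the fatty acid desaturase, fell from 710, 1170 and 582 CPM to 389, 446 and 439 CPM (-0.95 ± 0.25, adjusted p = 0.0417), and Lsd-1, a lipid droplet protein, from 55, 74.4 and 38.5 to 33.3, 33.9 and 23.3 (-0.89 ± 0.24, adjusted p = 0.0485). Without any 1 rescue library, 2 lipid genes were lower in place of 5, and without control replicate 2 or any 1 mutant library 3 were. The calls of Npc2a and Desat1 were lost without any 1 rescue library, and that of Desat1 also without control replicate 2 or any 1 mutant library. The call of Lsd-1 was lost without control replicate 1 or 2 or any 1 mutant or rescue library. It was also lost with RLE scaling, the filter of 1 CPM in 3 libraries and the 6 libraries alone. Outside the lists, Men-b, a malic enzyme that makes NADPH, rose from 327, 375 and 291 CPM to 1893, 3023 and 2409 CPM (2.88 ± 0.26, adjusted p = 0.000325). Acsx3, an acyl-CoA synthetase relative, rose from 6.12, 4.71 and 2.72 CPM to 54.4, 58.4 and 63.5 CPM (3.70 ± 0.26).

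The other genes with the largest differences, among those of at least 5 CPM in one group, were mostly without a name beyond their annotation number. CG34316 read 0.458, 1.30 and 0.678 CPM in control and 46.1, 25.9 and 12.1 CPM in rescue (5.12 ± 0.79, adjusted p = 0.00491). CG31089 (4.66 ± 0.35), CG11893 (4.51 ± 0.62), CG31091 (4.05 ± 0.58) and CG30083 (3.77 ± 0.39) were also higher, all without overlap, which was a condition for naming them. CG34220, at 564 to 1227 CPM in the controls, rose to 2894, 2354 and 4786 CPM (1.85 ± 0.42, adjusted p = 0.0252), a call lost without control replicate 1, rescue replicate 1 or rescue replicate 3. phr, the photolyase that repairs ultraviolet damage in DNA, read 0.844, 0.670 and 1.19 CPM in control and 10.9, 11.9 and 11.8 CPM in rescue. Its groups were tight and far apart (3.67 ± 0.22, adjusted p = 3.53e-05), and it averaged 9.64 CPM in the mutant.

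SMC2, a core subunit of condensin, which compacts chromosomes, had one of the largest falls. It read 248, 236 and 136 CPM in control and 6.54, 3.99 and 3.41 CPM in rescue, 44.3-fold lower (log2 -5.47 ± 0.35, adjusted p = 5.26e-05). The mutant libraries read 4.31, 4.35 and 6.39 CPM. The other condensin subunits on the cell cycle list were not called: glu at 9.27, 5.49 and 9.40 CPM in control against 7.95, 7.25 and 6.96 in rescue, Cap-G at 14.7, 13.4 and 11.7 against 15.9, 14.3 and 16.0, and barr at 10.1, 9.98 and 11 against 10.6, 10.6 and 11. Cap-D2 read 4.15, 2.49 and 4.18 CPM against 3.38, 2.39 and 2.64. CG31041 fell from 139, 225 and 338 CPM to 6.63, 12.9 and 19.9 CPM (-4.15 ± 0.46, adjusted p = 0.000973), and CG3348 from 51.2, 134 and 192 to 7.18, 5.32 and 10.8 (-4.02 ± 0.48, adjusted p = 0.00135). CG5883 (-4.27 ± 0.62), CG7912 (-3.47 ± 0.28), CG4991 (-3.31 ± 0.18) and trpl, a cation channel of light-sensing cells (-3.23 ± 0.32), were lower by similar amounts. That their groups did not overlap was a condition for naming them.

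Antimicrobial peptides were at low levels apart from 1 gene. Of 15 tested, 2 were higher (13.3%, beside 4.79% of all genes) and none lower. The median of 0.15 rested on single libraries, at 2.93 without control replicate 2, -0.28 without control replicate 1, 0.40 without control replicate 3, -0.04 without rescue replicate 2 and 0.55 without rescue replicate 3. DptA, the Gram-negative-responsive diptericin, read 0.354, 1.34 and 0.794 CPM in control and 65.0, 10.4 and 27.5 CPM in rescue. Every rescue library lay above every control, and the log2 fold change was 5.37 ± 0.77 (adjusted p = 0.00356). Def, the defensin, rose from 0.365, 1.07 and 0.642 CPM to 1.69, 2.95 and 4.38 CPM (2.11 ± 0.49, adjusted p = 0.028), a call lost without control replicate 1 or 3 or rescue replicate 2 or 3. DptB, the neighbouring diptericin, read 0.0208, 8.18 and 0.0625 CPM in control and 3.77, 3.73 and 1.18 CPM in rescue, which overlapped. Without control replicate 2, 4 of the list were higher, and without control replicate 1 or 3 or rescue replicate 2 or 3, 1 was. Without control replicate 1 or 2, 1 was lower.

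Regulators of the gut immune response held 1 call. Of 19 members tested, 1 was lower and none higher, with a median of 0.06. The receptor PGRP-LC read 57.4, 52.9 and 54.2 CPM in control and 62.1, 59.8 and 51.4 CPM in rescue, and the factor Rel 147, 222 and 241 against 176, 162 and 192. PGRP-SC1a read 11.3, 68.7 and 14.6 CPM in control and 43.5, 145 and 123 CPM in rescue. Its groups overlapped and it was not called (1.72 ± 0.66, adjusted p = 0.129). The lower member was TotM, a stress-induced Turandot peptide, which read 0.542, 3.04 and 13.2 CPM in control and 0.103, 0.0839 and 0.162 CPM in rescue (-5.58 ± 1.24, adjusted p = 0.0246). Its control values differed widely, highest in replicate 3, and the call was lost without any 1 rescue library. Without control replicate 2, 2 members were higher.

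Calls among detoxification enzymes went in both directions. Of 74 cytochrome P450 genes tested, 10 were higher (13.5%) and 7 lower (9.46%), beside 4.79% and 4.65% of all genes. The median was 0.22, or 0.08 without control replicate 3. Cyp28a5 rose from 27.6, 33.4 and 40.9 CPM to 95.7, 76.5 and 95.3 CPM (1.39 ± 0.19, adjusted p = 0.00251) and Cyp4s3 from 54.4, 73.9 and 39.8 to 104, 186 and 106 (1.24 ± 0.28, adjusted p = 0.0271), the latter not called without control replicate 1 or 3 or rescue replicate 2. Cyp6a17 fell from 33.6, 40.0 and 28.1 CPM to 2.59, 11.8 and 3.02 CPM (-2.55 ± 0.51, adjusted p = 0.016), a call lost without rescue replicate 3, and its mutant libraries read 38.9, 47.1 and 32.4 CPM. Cyp6t3 (-2.03 ± 0.23), Cyp6g2 (-1.79 ± 0.22) and Cyp313b1 (-1.45 ± 0.29) were also lower. The call of Cyp313b1 was lost without any 1 rescue library. Without rescue replicate 1 or 3, 3 or 2 of these genes were lower in place of 7, with the 6 libraries alone 6 were higher, and DESeq2 called 19 higher and 12 lower.

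The glutathione transferases conjugate toxins to glutathione. Of 34 tested, 6 were higher (17.6%) and 2 lower (5.88%), beside 4.79% and 4.65% of all genes, with a median of 0.14. GstE8 rose from 87.6, 92.7 and 48.1 CPM to 196, 245 and 220 CPM (1.53 ± 0.23, adjusted p = 0.00442), and GstE6 (1.25 ± 0.20), GstS1 (1.24 ± 0.23) and GstE10 (1.40 ± 0.36) were higher too. GstE8 averaged 208 CPM in the mutant. GstE5, in the same cluster, fell from 59.0, 85.2 and 70.9 CPM to 21.0, 31.2 and 20.3 CPM (-1.57 ± 0.19, adjusted p = 0.00149), and GstO1 was lower as well (-1.30 ± 0.25). Without rescue replicate 2 or 3, 3 were higher, without any 1 rescue library 1 was lower, and without control replicate 1 4 were lower. The call of GstO1 was lost without any 1 rescue library, and that of GstE10 without control replicate 1 or 2, mutant replicate 1 or 3, or rescue replicate 2 or 3. Of 31 UDP-glycosyltransferases tested, which add sugars to small molecules, 1 was higher (3.23%) and 5 lower (16.1%), with a median of -0.09. Ugt37B1 rose from 51.0, 44.1 and 11.2 CPM to 197, 195 and 198 CPM (2.47 ± 0.44, adjusted p = 0.00937). Its mutant mean was 190 CPM. Ugt37C2 (-1.08 ± 0.17), Ugt37E1 (-1.66 ± 0.32) and Ugt302E1 (-0.93 ± 0.22) were lower. Ugt37E1 was not called without rescue replicate 1 or 3, and Ugt302E1 without control replicate 3 or any 1 rescue library. Without rescue replicate 1 or 2, 3 of these genes were lower, and without rescue replicate 3, 2.

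Enteroendocrine genes were higher as far as they were called. Of 24 tested, 5 were higher (20.8%, beside 4.79% of all genes) and none lower, with a median of 0.34. Tk, the gut hormone tachykinin, read 97.8, 115 and 84.3 CPM in control and 183, 191 and 211 CPM in rescue, close to 2-fold (log2 0.98 ± 0.14, adjusted p = 0.00295), with no overlap. The mutant mean was 175 CPM. AstA, allatostatin A, rose from 32.9, 37.0 and 48.4 CPM to 59.0, 72.4 and 76.4 CPM (0.81 ± 0.17, adjusted p = 0.0183). Cadps, which primes hormone vesicles for release, rose from 4.36, 3.50 and 3.54 CPM to 8.95, 7.75 and 6.56 CPM (1.03 ± 0.16, adjusted p = 0.00572). pros, the transcription factor that defines these cells, rose from 7.65, 9.63 and 9.27 CPM to 15.9, 12.6 and 12.7 CPM (0.64 ± 0.13, adjusted p = 0.0204). The calls of AstA without rescue replicate 2 or 3, and of pros without rescue replicate 1 or 3, were lost. The fifth member was the hormone Dh31 (0.47 ± 0.13, adjusted p = 0.0479), whose call was lost without any 1 control or rescue library or without mutant replicate 3.

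Other hormones of these cells were not called. NPF read 59.9, 62.5 and 41.8 CPM in control and 44.2, 44.9 and 60.4 CPM in rescue, Orcokinin 109, 124 and 91.9 against 90.6, 96.1 and 106, and AstC 140, 159 and 135 against 150, 179 and 206. The list held 3 higher members without rescue replicate 1 or 2 or with the 6 libraries alone, 2 without rescue replicate 3, and 8 with DESeq2. Neuronal genes moved with the list. The summed level of the neuronal list was 44.1 to 52.2 CPM in control and 68.9 to 78.0 CPM in rescue. Of 8 tested, 3 were higher (37.5%, beside 4.79% of all genes) and none lower, with a median of 0.65. These were brp, a scaffold of the synapse (3.07, 3.74 and 3.11 CPM against 6.97, 6.02 and 6.47), Syt1, the calcium sensor of synaptic release (2.83, 3.17 and 3.08 against 5.84, 4.82 and 5.49), and Appl, the neuronal amyloid precursor relative (8.10, 9.54 and 7.42 against 12.3, 15.2 and 15.8). Their log2 fold changes were 0.97 ± 0.14, 0.83 ± 0.18 and 0.79 ± 0.16, and 1 gene of the list was higher without rescue replicate 3. The call of Syt1 was lost without rescue replicate 1 or 3, and that of Appl without rescue replicate 2 or 3. elav, the pan-neuronal marker, read 7.66, 8.24 and 7.89 CPM in control and 13.4, 10.3 and 10.4 CPM in rescue (adjusted p = 0.0827), while the transmitter genes VGlut and ChAT stood at 0.26 CPM or less in all 6 libraries. The part of neurons in the enteroendocrine result was not tested.

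Of 11 progenitor genes tested, none was called in either direction, with a median of -0.23. At an unadjusted p under 0.05, 1 was higher and 3 lower, and DESeq2 called 2 lower. Sox21a, a transcription factor of progenitors, read 8.55, 15.8 and 54.1 CPM in control and 8.19, 7.67 and 7.37 CPM in rescue (-1.76 ± 0.54, adjusted p = 0.0729). All rescue libraries lay below all controls, but control replicate 3 held most of the difference. E(spl)m3-HLH, a Notch target of enteroblasts, read 9.81, 13.0 and 20.3 CPM in control and 9.30, 7.77 and 8.77 CPM in rescue (adjusted p = 0.0777). The higher member was mira, with 12.9, 15.8 and 7.66 CPM in control and 19.5, 16.4 and 21.5 CPM in rescue (0.66 ± 0.25, adjusted p = 0.122). The summed list was 96.8, 117 and 186 CPM in control and 111, 97.1 and 114 CPM in rescue, which overlapped. Its median was -0.03 without control replicate 3, whereas without control replicate 1 3 members were lower.

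Cell cycle genes were called lower or not at all, and many of the differences were largest against control replicate 3. Of 45 tested, 7 were lower and none higher, with a median of -0.66, and 19 had groups that did not overlap in the lower direction, beside 15.8% of all genes. Apart from SMC2, the called genes were CycB, Mcm7, PCNA, Mcm2, dpa and Ndc80, which act in mitosis or DNA replication. PCNA, the clamp of DNA polymerase, read 3.03, 3.39 and 16.3 CPM in control and 1.57, 1.65 and 1.49 CPM in rescue (-2.27 ± 0.60, adjusted p = 0.0429). CycB, the mitotic cyclin, read 1.07, 1.54 and 7.35 CPM against 0.721, 0.468 and 0.429 (-2.62 ± 0.69, adjusted p = 0.0427), and Mcm7, of the replicative helicase, 2.3, 1.91 and 9.42 against 1.04, 0.911 and 1.05 (-2.18 ± 0.56, adjusted p = 0.0404). In each of these the third control stood far above the other controls. Their calls were lost without any 1 mutant or rescue library, and that of CycB also without control replicate 3. The calls of Ndc80, dpa and Mcm2 were lost without any 1 rescue library, those of Ndc80 and Mcm2 without control replicate 3, that of Mcm2 without control replicate 1 or any 1 mutant library, and that of dpa without mutant replicate 1 or 3. Library totals alone also ended the call of Mcm2, and the replicate block those of CycB, PCNA and Mcm2. The 6 libraries alone ended every call of the list but that of SMC2. Without control replicate 3 the median of the list was -0.22 and 5 genes were lower, without control replicate 1 or 2 11 or 13, without mutant replicate 1, 2 or 3 2, 3 or 2, without any 1 rescue library 1, and with the 6 libraries alone 1.

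Signals that drive stem cell division had the same control library at the top. Of 21 genes of JAK-STAT, EGFR and JNK signalling tested, 15 were highest in control replicate 3, none was lower and 1 was higher, with a median of -0.29, or -0.01 without that library. Here too the share of all genes that peaked in control replicate 3 is not given. upd3, the cytokine induced by gut damage, read 0.917, 1.84 and 30.9 CPM in control and 1.68, 0.911 and 0.452 CPM in rescue (adjusted p = 0.107). Socs36E, a feedback target of the pathway, read 29.4 and 34.7 CPM in control replicates 1 and 2, and 23.8, 26.1 and 26.1 CPM in rescue (adjusted p = 0.098). It too was highest in control replicate 3. The called member was rau (2.66 ± 0.21, adjusted p = 0.000147), and without control replicate 1, 2 members were lower. Of 13 insulin and TOR genes, 1 was lower and none higher, with a median of -0.09. This was Ilp3, an insulin-like peptide, with 2.99, 3.50 and 5.17 CPM in control and 1.22, 1.37 and 1.36 CPM in rescue (-1.56 ± 0.26, adjusted p = 0.00729), all rescue libraries below all controls. Without control replicate 3, 2 members were lower.

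**Figure D3:**
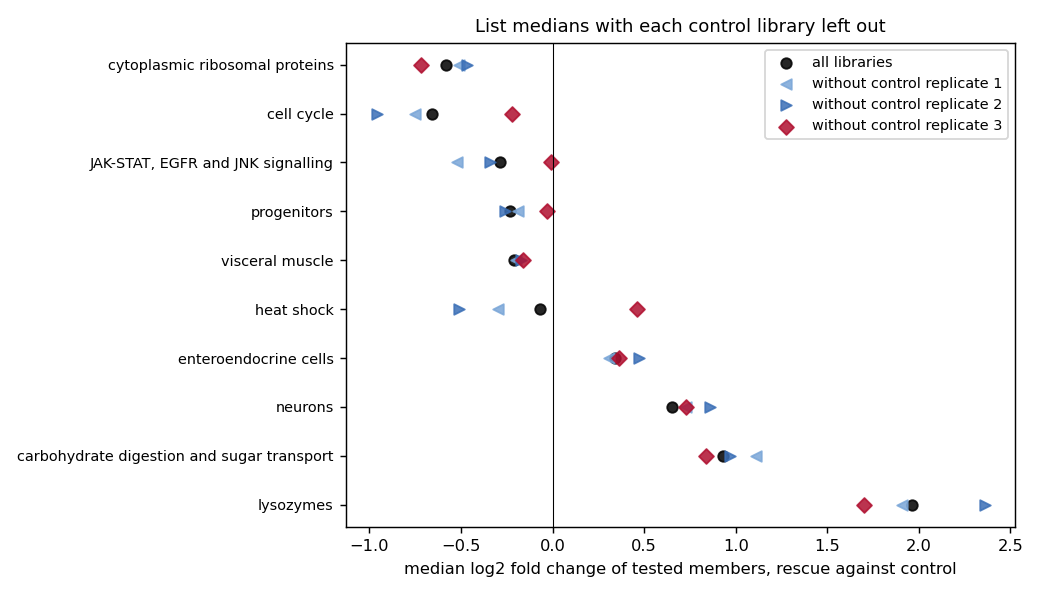
Median log2 fold change of rescue against control for 10 gene lists (horizontal axis), with all libraries (circles) and with control replicate 1, 2 or 3 left out. The cell cycle median moves from -0.66 to -0.22 without control replicate 3 and the heat shock median from -0.07 to 0.46, while carbohydrate genes and lysozymes keep their sign.

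Cytoplasmic ribosomal proteins had small negative differences throughout. All 75 genes tested had a log2 fold change below 0, from -0.94 to -0.32, with a median of -0.58. Of these, 8 were called lower and none higher, and 49 had groups that did not overlap in the lower direction, beside 15.8% of all genes. Their summed level was 90813, 94592 and 64291 CPM in control, 53454, 52290 and 61309 CPM in rescue, and 75051, 63526 and 56556 CPM in the mutant, so the lowest control lay close to the highest rescue library. RpL41 fell from 1452, 1526 and 1077 CPM to 686, 669 and 797 CPM (-0.91 ± 0.18, adjusted p = 0.0151), and RpL39 from 843, 761 and 593 to 366, 348 and 434 (-0.94 ± 0.20, adjusted p = 0.0226). Both calls were lost without rescue replicate 1 or 2, and that of RpL39 also without rescue replicate 3. The number of calls moved with single libraries: 63 genes were lower without control replicate 3, 2 without control replicate 1 or 2, 4 and 3 without mutant replicate 2 or 3, 0 without rescue replicate 1 or 2, and 1 without rescue replicate 3. DESeq2 called 56 lower, upper-quartile scaling 16 and library totals alone 24, and 70 had an unadjusted p under 0.05.

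Calls among enterocyte and regional identity genes were all higher. Of 15 tested, 3 were higher (20%, beside 4.79% of all genes) and none lower, with a median of 0.04. These were region-specific transcription factors: caup, from 4.55, 6.07 and 4.75 CPM to 8.23, 8.23 and 12.9 CPM (0.93 ± 0.21, adjusted p = 0.0252), its neighbour mirr, from 5.50, 7.08 and 5.44 to 10.5, 9.20 and 11.5 (0.79 ± 0.14, adjusted p = 0.0105), and exex, from 133, 130 and 92.8 to 166, 179 and 211 (0.65 ± 0.16, adjusted p = 0.0336). None overlapped between groups, and none of the 3 was called without rescue replicate 3. The call of caup was also lost without control replicate 1 or 3, and that of exex without any 1 mutant or rescue library. Without control replicate 1, 1 member was lower. lab, the marker of the copper cell region, read 20.7, 25.1 and 18.3 CPM in control and 17.4, 17.3 and 19.4 CPM in rescue. Groups did not overlap in 5 members in the higher direction (33.3%) and 2 in the lower (13.3%), beside 15.6% and 15.8% of all genes. The lower members were nub, an enterocyte gene (-0.43 ± 0.20, adjusted p = 0.197), and pdm2 (-1.30 ± 0.41, adjusted p = 0.0755), neither called.

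Markers of other tissues held few calls. None of 16 visceral muscle genes was called in either direction, with a median of -0.21, although 5 were lower at an unadjusted p under 0.05 and DESeq2 called 1, as did the test without rescue replicate 2. Their summed level was 3506 to 3973 CPM in control and 2693 to 3499 CPM in rescue. Of 7 tracheal and haemocyte genes, 1 was lower and none higher, with a median of -0.66 (-0.31 without control replicate 2 and -0.36 without rescue replicate 3), namely verm, a chitin-modifying enzyme of tracheae (4.08, 5.07 and 4.0 CPM against 2.51, 3.06 and 2.37, adjusted p = 0.0354). Its call was lost without control replicate 2, mutant replicate 1 or 3, or any 1 rescue library, and without control replicate 3, 2 members were lower. Of 5 testis genes tested, 1 was higher, the meiotic factor bol, with 8.48, 13.2 and 5.76 CPM in control and 30.1, 17.9 and 23.8 CPM in rescue (1.39 ± 0.35, adjusted p = 0.0375). The other 13 testis genes on the list had under 10 counts in every library, and the call of bol was lost without control replicate 1 or 3, mutant replicate 1 or any 1 rescue library.

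No ovary gene of 3 tested, no tubule or hindgut gene of 5, no ecdysone or juvenile hormone gene of 12 and no heat shock gene of 12 was called, with medians of -0.12, 0.40, 0.22 and -0.07. At an unadjusted p under 0.05 there were 0, 0, 3 and 2 of them, and DESeq2 called 0, 0, 0 and 2. Without control replicate 3, 1 tubule or hindgut gene and 1 hormone gene were lower and 1 heat shock gene was higher. Of 9 metallothioneins and ferritins, 1 was lower, MtnE, with 49.1, 27.8 and 28.8 CPM in control and 12.9, 24.4 and 16.3 CPM in rescue (adjusted p = 0.0485), with a median of -0.05. That call was lost without control replicate 1, any 1 mutant library, or rescue replicate 1 or 3. It was also lost with the filter of 1 CPM in 3 libraries, the 6 libraries alone and the replicate block.

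**Figure D4:**
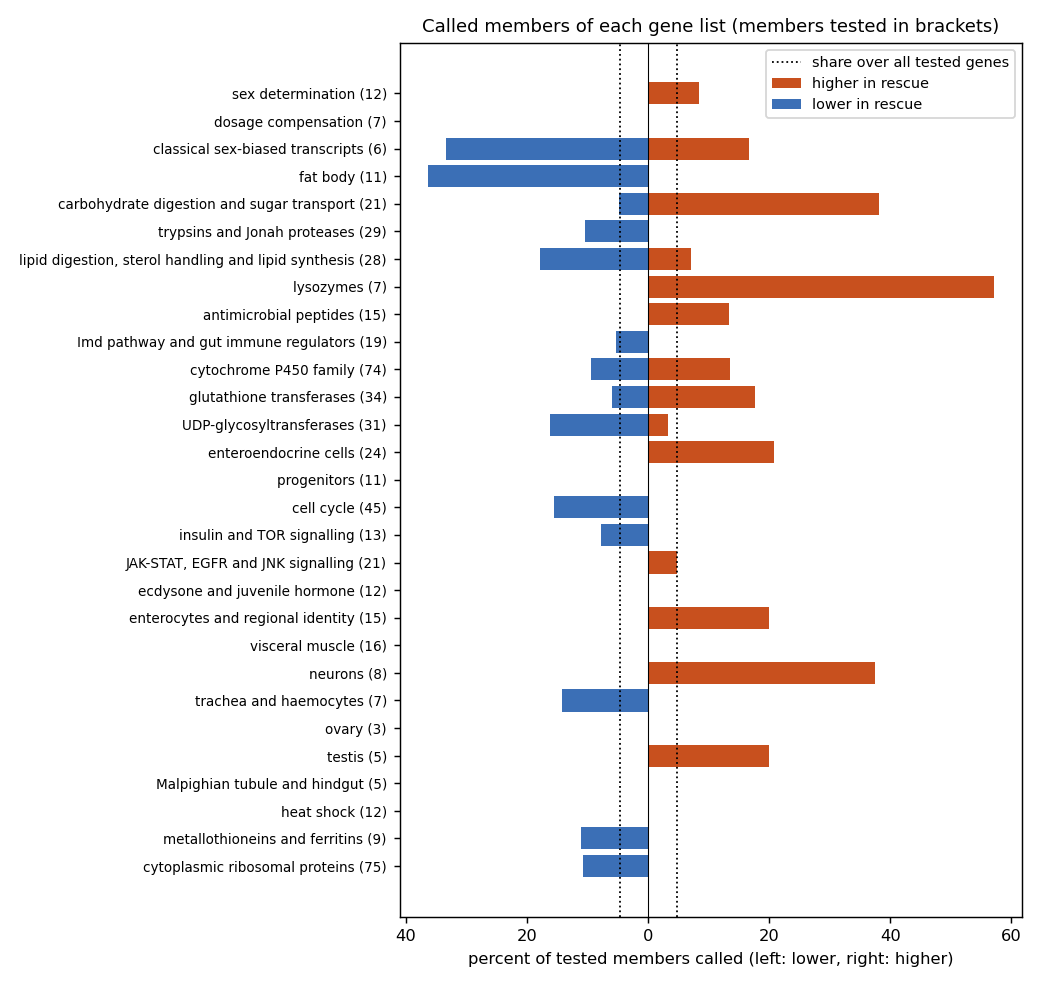
Percent of the tested members of each of the 29 gene lists called higher (right) or lower (left) in the rescue, with the number tested in brackets. Dotted lines mark the share over all genes tested, 4.79% higher and 4.65% lower. Lysozymes, with 4 of 7, and carbohydrate genes, with 8 of 21, reach furthest to the right.

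A few genes had a level in the rescue that differed from the mutant as well as from the control. Between rescue and mutant, 47 of the 10088 genes were called (0.466%), 19 higher (0.188%) and 28 lower (0.278%), and between mutant and control 673 were called (6.67%), 369 higher (3.66%) and 304 lower (3.01%). These comparisons share libraries, so the values are set side by side. Among the genes named here, DptA was one. Its mutant libraries read 0.102, 0.367 and 0.0861 CPM, and the rescue differed from them by a log2 fold change of 7.54 ± 0.89 (adjusted p = 0.00487), beside 5.37 ± 0.77 from the control. CG30026 read 2.09, 2.13 and 1.23 CPM in control and 60.2, 33.9 and 37.3 CPM in rescue, with the mutant at 2.0, 2.88 and 2.33 CPM. Its level was high in the rescue alone, with log2 fold changes of 4.59 ± 0.30 against control (adjusted p = 5.26e-05) and 4.19 ± 0.30 against the mutant (adjusted p = 0.000427). rau, which prolongs signalling by receptor tyrosine kinases, read 1.37, 1.99 and 1.61 CPM in control and 8.98, 11.3 and 11.1 CPM in rescue, with the mutant at 2.55, 1.88 and 2.54 CPM. Its log2 fold changes were 2.66 ± 0.21 (adjusted p = 0.000147) and 2.17 ± 0.20 (adjusted p = 0.0012).

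Among the genes named by rule, 2 cytochrome P450 genes were higher than in both groups. Cyp4p1 read 19.2, 19.2 and 33.6 CPM in control and 103, 94.1 and 96.4 CPM in rescue, with the mutant at 42.8, 39.2 and 44.8 CPM. The 3 groups did not overlap, and the rescue stood 2.03 ± 0.21 above control and 1.21 ± 0.20 above the mutant on the log2 scale (adjusted p = 0.00061 and 0.0384). Cyp28d2 read 4.53, 2.90 and 2.10 CPM in control and 11.6, 10.6 and 12.9 CPM in rescue, with the mutant at 4.24, 3.92 and 3.66 CPM (1.88 ± 0.25 and 1.57 ± 0.25, adjusted p = 0.00241 and 0.03). Cyp6a13, chosen after its values were seen, was lower than in both, with 44.6, 39.1 and 39.6 CPM in control and 30.5, 28.5 and 32.6 CPM in rescue, with the mutant at 61.8, 58.5 and 57.0 CPM (-0.43 ± 0.10 and -0.95 ± 0.10, adjusted p = 0.0289 and 0.00283). Its call against control was lost without control replicate 1, mutant replicate 3 or any 1 rescue library. It was also lost with library totals alone and with the 6 libraries alone.

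Of the genes named by rule, CG34054, CG11700, Ugt37A1 and sut3 were lower in the rescue than in both groups. CG34054 read 7.35, 7.58 and 4.51 CPM in control and 0.567, 0.300 and 0.347 CPM in rescue, with the mutant at 3.66, 3.10 and 4.14 CPM (-3.98 ± 0.31 and -3.15 ± 0.31, adjusted p = 0.000163 and 0.00161). CG11700 read 9.61, 9.78 and 6.28 CPM in control and 0.790, 0.348 and 0.533 CPM in rescue, with the mutant at 4.35, 1.78 and 3.05 CPM (-3.93 ± 0.41 and -2.44 ± 0.39, adjusted p = 0.000643 and 0.03). In both genes the mutant lay between the groups. Ugt37A1 read 4.59, 6.81 and 8.50 CPM in control and 0.893, 0.659 and 0.683 CPM in rescue, with the mutant at 3.69, 7.88 and 2.70 CPM (-3.15 ± 0.42 and -2.67 ± 0.41, adjusted p = 0.00229 and 0.0272). sut3 read 0.656, 0.840 and 0.812 CPM in control and 0.0172, 0 and 0.0347 CPM in rescue, with the mutant at 1.05, 0.787 and 0.516 CPM, so its control and mutant libraries overlapped and the rescue stood below both (-5.39 ± 0.61 against the mutant, adjusted p = 0.00417).

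The genes that separated rescue from mutant lay mostly on one chromosome. Of the 47 called, 41 were on chromosome 2 (87.2%), beside 37.1% of all genes tested, and 2 each were on chromosome 3 and on X. Of the 9 named by rule, DptA, CG30026, Cyp4p1, CG34054 and sut3 lie on arm 2R, rau, Cyp28d2 and Ugt37A1 on arm 2L, and CG11700 on X. Of the 952 genes called between rescue and control, 40.0% were on chromosome 2, 42.4% on chromosome 3 and 13.4% on X, beside 37.1%, 42.6% and 15.5% of the genes tested. The share called higher ran from 4.22% on X to 5.25% on arm 3L among the large arms, and the share called lower from 3.97% on X to 5.48% on arm 2R. Because the labels do not give the chromosomes of the driver and of the transgene, effects of traF and of other sequence carried on chromosome 2 by the rescue flies cannot be told apart.

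**Figure D5:**
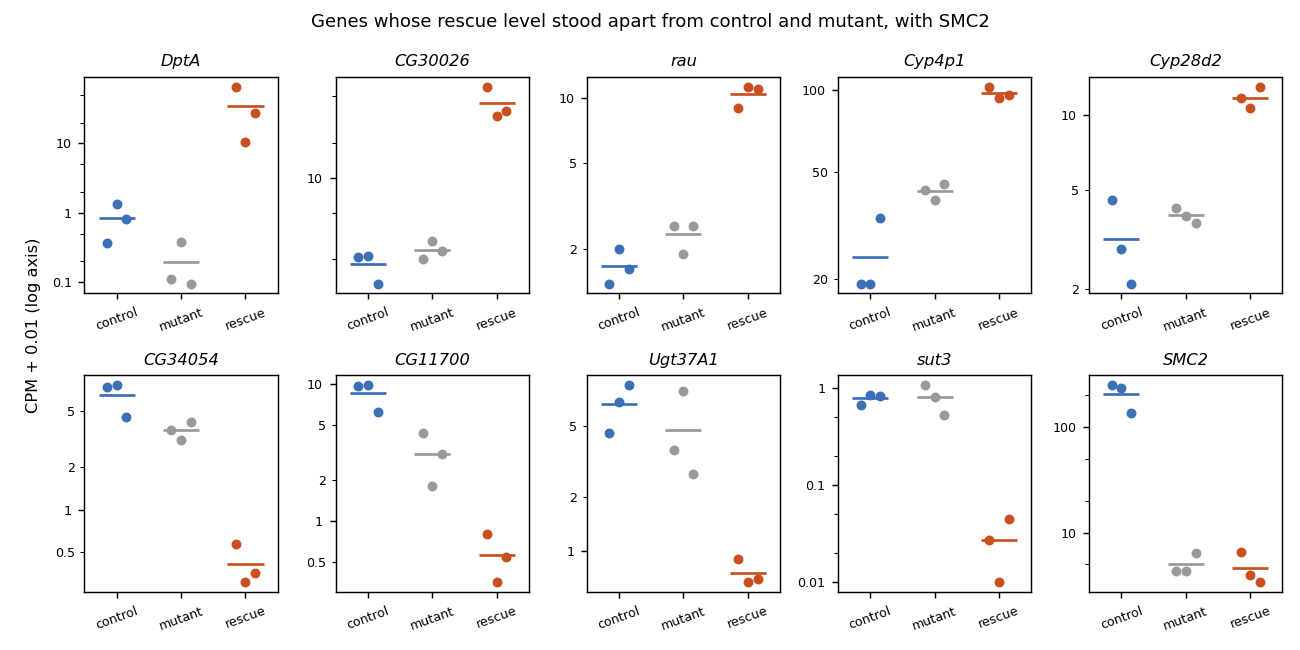
CPM plus 0.01 in each of the 9 libraries (log axis, scale differing by panel) for the 9 genes named by rule and called in the rescue against both control and mutant, and for SMC2. Points are libraries and bars group means. In the 9 genes the rescue stands apart, while SMC2 is low in mutant and rescue alike, at 6.54 CPM or less.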

How the data were processed

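RNA sequencing counts of 9 libraries were used, 3 per group, as deposited by the authors: whole-number counts per gene with no scaling. TopHat2 2.0.11, HTSeq and dm3 are named, with no roles, in the submitters' processing notes. Since no source used here states how strand was counted, genes with overlapping neighbours are uncertain, among them 287 of the 952 called genes, whose exons overlap a gene on the other strand. Of 15682 identifiers, 15002 were paired with a symbol and arm through tables of another build, so no coordinates are given, and 29 list members without a pair were not analysed here. The 5 lines that name no gene, 16.84% to 22.35% of the alignments of the 6 libraries compared, were left out.

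In R 4.3.3, edgeR 4.0.16 kept 10088 genes (filterByExpr, 10 counts and 15 in total), scaled libraries by TMM and fitted a mean per group to all 9 libraries. The common biological coefficient of variation was 0.246. SE came from the F statistic, and log2 fold changes are those of edgeR. A count of 0 allows up to 3 counts, and 95% intervals cover counting error only. Replicates of a group differed by more than counting noise. Scripts were tested on simulated data.

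Members and lists were chosen with earlier results of these data known. Named were, per direction, the 12 largest log2 fold changes among called genes with groups apart and 5 CPM in the higher group, the 6 largest CPM differences among called genes of at least 2-fold, and, per list, up to 4 called members a direction or the 1 or 2 of smallest p. Other list members were named after their values were seen. Alternatives were RLE, upper-quartile and unscaled libraries, no filter, 1 CPM in 3 libraries, the 6 libraries alone, a replicate block, leaving out each library, and DESeq2 1.42.0.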

Additional observations from a re-analysis of the deposited data

Results flagged for a closer look

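The alignments that the authors counted to no gene lie outside the comparison of genes, and 3 of their classes were higher in every rescue library than in every control library. Alignments at more than 1 place took 14.8%, 14.6% and 16.5% of all alignments in control and 19.5%, 18.4% and 18.4% in rescue, with the mutant at 15.8%, 22.9% and 19.7%. The mean of the rescue was 3.45 percentage points above that of the control. Alignments outside genes took 1.49%, 1.41% and 1.30% in control and 1.83%, 1.59% and 1.70% in rescue, with the mutant at 1.30%, 1.5% and 1.42%. Rescue and control means differed by 0.309 points. Alignments matching more than 1 gene took 0.900%, 0.822% and 0.873% in control and 1.04%, 1.09% and 1.08% in rescue, with the mutant at 1.03%, 0.966% and 1.03%. Here rescue and control means differed by 0.207 points. These shares were picked because the groups did not overlap, so no test is given. The part of these shares in the differences between genes was not tested.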

How the results depend on the processing

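Over the 17 alternatives, the genes higher in the rescue numbered 483 as reported, 294 with the 6 libraries alone and 836 with DESeq2, and the genes lower numbered 469, 200 and 906. Leaving out 1 library at a time gave 221 to 466 higher and 139 to 508 lower, fewest without rescue replicate 3. Without control replicate 3, 440 were higher and 486 lower, of which 377 and 327 were among those reported. Scaling by RLE, by upper quartile or by totals, and filters of none or 1 CPM, gave 440 to 521 higher and 360 to 514 lower. Of 94 called genes named by the rule, 55 kept the call in every alternative and none changed sign, and 24 lost it with the 6 libraries alone and 28, 31 and 34 without rescue replicate 1, 2 and 3. The uncalled ovary gene grk moved from -0.12 to 0.26 without control replicate 3 and to 0.03 without rescue replicate 1, within a range of -0.30 to 0.26 over the libraries left out, and the cause was not tested. Scaling moved the median of all genes by little, from -0.06 to -0.01 on the log2 scale.

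With the replicate number as a block, 478 genes were higher and 439 lower, and 6 of the 94 called genes were not called. Deviations of same-numbered control and rescue libraries correlated at 0.0237, 0.25 and 0.0304, and those of unlike number at -0.213 to 0.167. So few libraries cannot show whether those of the same number shared more than that number.

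Without each library, an alternative chosen after seeing the data, the differences in the shares of alignments at more than 1 place, outside genes and matching more than 1 gene ran from 3.1 to 4.05, 0.247 to 0.368 and 0.186 to 0.225 percentage points, and their direction was fixed by how they were picked. Further list medians near 0 turned sign: UDP-glycosyltransferases stood at 0.01 and metallothioneins and ferritins at 0.02 without control replicate 2, immune regulators at -0.13 and regional identity genes at -0.03 without control replicate 1, immune regulators at -0.12 without rescue replicate 2, metallothioneins and ferritins at 0.01, heat shock genes at 0.03 and ovary genes at 0.03 without rescue replicate 1, and ovary genes at 0.03 and heat shock genes at 0.46 without control replicate 3. With 3 libraries a group, genes of few counts have wide errors, and 232 called genes averaged under 5 CPM in both groups.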
